A study of Mus musculus and synthetic construct with 9 samples.

Results

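The allelic effects of 6248 SNPs were measured in MIN6 cells kept in standard culture. They were drawn from a massively parallel reporter assay (MPRA) whose table holds 6628 SNP pairs, each a reference and an alternate sequence that differ at the SNP. A pair was kept when both of its alleles had a mean of at least 100 counts in the plasmid libraries, a rule that uses no RNA value, and 94.3% of pairs met it. Of the 380 pairs left out, 79 had an allele with no plasmid count at all. The table also holds 186 pairs built on a second haplotype, and these were not taken. The allelic effect is the alternate minus the reference value of log2 RNA over mean plasmid counts, so a positive value means more reporter RNA from the alternate allele, and 1 unit is a 2-fold difference.

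MIN6 is an established insulinoma line from the mouse, and every group was transfected with the same kind of library, in which a 200 bp human sequence stands before a minimal promoter and a GFP gene with 20 bp barcodes. Cells in standard culture received no agent and were harvested at 30 h. DMSO (0.025%) and Tg (250 nM thapsigargin in 0.025% DMSO) were added from 6 h to 30 h. Cells of these groups received a second plasmid batch, grown from the first in E. coli. The groups serve here for the direction of effects and for values of some named SNPs. Per the labels each transfection took 7 dishes with 7 µg of plasmid per dish, at an efficiency of 38%. The study's methods give 5 separate days of transfection for each condition. The table numbers 6 RNA libraries for standard culture in 9 columns, since numbers 2, 4 and 6 each have a second, starred column whose meaning is not stated. The member rule takes numbers 2 to 6, with the plain column of number 2 and the starred columns of 4 and 6, and the day of each library is not given. The sequences are human and the cells are a tumour line of another species, and the counts hold no genes of the host, so its β cell markers could not be examined. These 5 RNA libraries held 19851799 to 30938393 counts and the 5 plasmid libraries 25681275 to 31761939. Over members, the less abundant allele of a pair had a median of 2009 mean plasmid counts and at most 7518.

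An enhancer raises transcription from a promoter through transcription factors that bind short motifs in it, and a single base change can create, weaken or remove such a motif. An MPRA places each allele in the same vector and reads how much barcoded RNA it gives, outside its chromosome and away from its own gene. Most variants associated with type 2 diabetes (T2D) lie outside coding exons, and many of their loci act on insulin secretion by β cells. The library holds T2D SNPs beside a larger number of SNPs that the study chose within islet open chromatin. Some of the latter are associated with the accessibility of that chromatin and others are not.

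The sequences around the SNPs with strong or instructive effects are shown first. They come from the study's supplementary lists, on the plus strand of hg19, as stretches of at most 29 bases around the SNP, and the capital letter marks the SNP. The first 2 SNPs have large effects with more RNA from the alternate allele, and the following 3 are an alternate allele that forms a CG dinucleotide and reference alleles that gave more RNA. The RNF6 and PCNX2 SNPs, rs4630391 and rs113736501, lie in strongly active sequences, and the last pair lies at CDKN2A/B.
rs17748864 C allele, chr3:179649501-179649521: tacagcacagCccaattaact
rs17748864 T allele: tacagcacagTccaattaact
rs10778949 A allele, chr12:83612850-83612878: gatttattgacttaAcctggatcggcagt
rs10778949 G allele: gatttattgacttaGcctggatcggcagt
rs12201218 T allele, chr6:66653607-66653631: ggtctctagaaaTgaaaggtagaat
rs12201218 C allele: ggtctctagaaaCgaaaggtagaat
rs10887775 G allele, chr10:89766355-89766381: ctttctttgacttGccactgcatagca
rs10887775 A allele: ctttctttgacttAccactgcatagca
rs12477908 A allele, chr2:27987032-27987060: ctaaaatacaaaaaAttgccagctgcggg
rs12477908 C allele: ctaaaatacaaaaaCttgccagctgcggg
rs4630391 C allele, chr13:26777814-26777834: gcaggctgggCgcagtggctc
rs4630391 T allele: gcaggctgggTgcagtggctc
rs113736501 C allele, chr1:233292458-233292481: gttcaagaccagaCtggccaacat
rs113736501 T allele: gttcaagaccagaTtggccaacat
rs10811660 G allele, chr9:22134054-22134074: ttcttgccctgtcaGcagctc
rs10811660 A allele: ttcttgccctgtcaAcagctc
rs10811661 T allele, chr9:22134082-22134106: gctttagttttcTcatgacagtaag
rs10811661 C allele: gctttagttttcCcatgacagtaag

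Most alleles were not called active, and the effects that passed the test were mostly small and ran about equally in both directions. Both alleles were active in 909 members, the reference allele alone in 287, the alternate allele alone in 303 and neither in 4749. A sequence was called active when its RNA counts exceeded its plasmid counts at a false discovery rate (FDR) of 1% in edgeR's quasi-likelihood test. The allelic effect was tested with limma for the 1499 members with at least 1 active allele, and 623 of them (41.6%) passed at an FDR of 10%, beside 41.8% of all SNPs tested. These counts depend on the scaling of the activity test, since with libraries scaled by total counts only 119 members had an active allele and 106 passed, 96 of them among the 623. The alternate allele was higher for 305 (beside 20.5% of all SNPs tested) and the reference allele for 318 (beside 21.3%). Where a single allele was active, the requirement of activity fixes the direction, so all 180 calls with an active reference allele alone ran one way and all 176 with an active alternate allele alone the other. With both alleles active, 267 of 909 passed, 129 with the alternate and 138 with the reference allele higher. The main test does not contain the error of the plasmid means, which all 5 RNA libraries share. With the spread of the plasmid libraries in the error, 465 passed, beside 31.0% of all SNPs tested, and all of them are among the 623. The counts are sums over the barcodes of a sequence, so a part of barcodes in any effect was not tested.

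The size of the effects that passed was a median of 0.15 on the log2 scale, or 1.11-fold, with quartiles of 0.10 and 0.25. Only 25 of 623 reached a 2-fold difference, 57 reached 0.5 and 208 reached 0.2, while 152 lay under 0.1. Of the 152 under 0.1, 25 also passed with the plasmid spread in the error, and of the 57 that reached 0.5 all did. Among the 4749 members without an active allele, the median size was 0.04 and the 95th percentile 0.15. When every SNP was tested regardless of activity, 201 of these 4749 (4.23%) passed, beside 9.13% of all SNPs. The levels of the alleles in the 5 libraries did not overlap for 288 of the 623, beside 19.4% of all SNPs tested. For the other 335 the ranges of the alleles overlapped. The sign was the same in all 5 libraries for 539 of the 623 and in 4 of 5 for the other 84.

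The precision followed the plasmid counts and the activity. The median SD of the effect over the 5 libraries was 0.26 for members whose less abundant allele had 100 to 300 plasmid counts and 0.06 above 3000. Members whose more active allele had a log2 RNA/plasmid ratio under 0.5 passed in 465 of 1243 cases (37.4%), with a median SD of 0.08 among those tested. Above a ratio of 4, 35 of 40 passed (87.5%), with a median SD of 0.02 and a median size of 0.24. Of the 623 effects, 81 (13.0%) were smaller than 3 standard errors of the plasmid ratio of their alleles.

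The largest effects with the alternate allele higher were gains from a reference allele at or near the plasmid level. At rs17748864 (chromosome 3, position 179649511 of hg19), in the locus of PEX5L, a brain protein related to the peroxisomal import receptor, the effect was 3.22, 3.37, 3.38, 3.48 and 3.30 in libraries 2 to 6. The C allele lay between -0.22 and 0.00 and the T allele between 3.18 and 3.38 in log2 RNA/plasmid ratio, and the groups did not overlap. The mean effect was 3.35 ± 0.09 (SD, n = 5), a 10.2-fold difference (limma adjusted p = 1.48e-10). At rs10778949 (chromosome 12, position 83612864) the A allele had a ratio between -0.07 and 0.03 and the G allele between 2.78 and 2.93. The effect was 2.75, 2.89, 2.92, 2.87 and 2.89, with a mean of 2.86 ± 0.07 (SD, n = 5) and a 7.28-fold difference (limma adjusted p = 1.48e-10). Every library of the G allele lay above every library of the A allele.

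At rs13130845 (chromosome 4, position 6297646), in the locus of WFS1, a membrane protein of the endoplasmic reticulum that is mutated in Wolfram syndrome, the effect was 2.68, 2.77, 2.91, 2.99 and 2.68. Its C allele gave 2.70 ± 0.09 and its A allele -0.10 ± 0.07 (SD, n = 5), a 7.00-fold difference (limma adjusted p = 2.29e-09). At rs76846759 (chromosome 3, position 123158794), in the locus of ADCY5, an adenylate cyclase that makes cAMP, the effect was 1.88, 1.85, 1.94, 1.87 and 2.01, and only the T allele was active. The allele levels of both SNPs were apart in every library. At rs3115025, for which the lists used here give no position, the effect was 1.82 ± 0.06 (SD, n = 5).

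Among the 12 largest effects of this direction were also smaller ones. The effect was 1.34 ± 0.09 at rs12604172 and 1.30 ± 0.12 at rs2049286 (SD, n = 5 each). At rs1713547 (chromosome 1, position 241189620), in the locus of RGS7, a regulator of G protein signalling, it was 1.09 ± 0.14 (SD, n = 5). In 2 of the 12 the reference allele was itself strongly active. At rs34700788 the ratio rose from 5.40 ± 0.12 to 6.86 ± 0.16 (SD, n = 5), from 42.2-fold to 116-fold over plasmid. At rs72697237 (chromosome 1, position 120473425), in an intron of NOTCH2, a receptor of Notch signalling, it rose from 6.03 ± 0.11 to 7.10 ± 0.11, and the effect was 1.06, 1.09, 1.09, 1.07 and 1.06, a spread of 0.02 (SD, n = 5).

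The largest effects with the reference allele higher were losses of activity to near the plasmid level. At rs2215383 (chromosome 7, position 15062983), which lies between DGKB, a diacylglycerol kinase, and AGMO, an ether lipid monooxygenase, the effect was -3.61, -3.61, -3.83, -3.63 and -3.81. The T allele gave 3.62 ± 0.11 and the C allele -0.08 ± 0.06 (SD, n = 5), a 13.0-fold difference and the largest of all members (limma adjusted p = 1.48e-10). At rs10073782 the effect was -2.06, -1.48, -1.88, -1.63 and -1.95, and at rs3746886 -1.46, -1.90, -1.88, -1.50 and -1.90. Both had SDs above 0.2, with 102 and 345 mean plasmid counts for the less abundant allele. At rs3934674 the effect was tighter, -1.58 ± 0.09 (SD, n = 5).

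The 8 others of this direction lay between -1.32 and -1.03. At rs270661 (chromosome 5, position 158560154), between a noncoding RNA and RNF145, a ubiquitin ligase, the effect was -1.32 ± 0.05 (SD, n = 5). At rs10933640 (chromosome 2, position 241813782), in an intron of AGXT, a peroxisomal aminotransferase, it was -1.30 ± 0.13, and at rs10840079 (chromosome 11, position 8605775), in an intron of the kinase STK33, -1.30 ± 0.06 (SD, n = 5 each). At rs2636937 (chromosome 3, position 197355908), near RUBCN, a negative regulator of autophagy, it was -1.26 ± 0.06 (SD, n = 5). At rs3773980 it was -1.16 ± 0.07, at rs17724172 -1.05 ± 0.13 and at rs2555099 (chromosome 2, position 17834754), in an intron of VSNL1, a neuronal calcium sensor, -1.03 ± 0.16 (SD, n = 5 each). Of the 24 SNPs in both directions, 20 had a single active allele. The effects had the same sign in all 5 libraries by the rule that chose them.

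Other SNPs changed the output of a sequence that was strongly active with either allele. At rs4300038 (chromosome 8, position 118217915), in the locus of SLC30A8, the zinc transporter of insulin granules, the G allele gave 9.52 ± 0.08 and the A allele 8.79 ± 0.12 (SD, n = 5), or 735-fold and 444-fold over plasmid. The effect was -0.78, -0.68, -0.68, -0.81 and -0.68, a 1.66-fold difference (limma adjusted p = 5.39e-07). No library of the A allele reached the lowest library of the G allele. At rs4630391 (chromosome 13, position 26777824), in the locus of RNF6, a ubiquitin ligase, the C allele gave 5.32, 5.58, 5.78, 5.29 and 5.54 and the T allele 4.85, 5.17, 5.35, 4.85 and 5.12. The allele levels overlapped between libraries, and within each library the C allele was higher, by 0.44 ± 0.02 (SD, n = 5, limma adjusted p = 2.57e-06).

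At rs113736501 (chromosome 1, position 233292471), in the locus of PCNX2, the effect was -0.32, -0.31, -0.29, -0.31 and -0.33. The reference level was 7.95 ± 0.17 and the alternate level 7.63 ± 0.18 (SD, n = 5), and within each library the reference allele was higher. This SNP, rs12201218, rs10887775 and rs12477908 were chosen for their sequences after their values were seen. At rs12201218 the effect was 1.03 ± 0.09, at rs10887775 -0.76 ± 0.06 and at rs12477908 -0.61 ± 0.09 (SD, n = 5 each), and each had the same sign in all 5 libraries.

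Among loci tied to insulin secretion, a list of 28 named loci held 301 members, of which 59 had an active allele and 25 passed (42.4%), beside 41.8% of all SNPs tested. The alternate allele was higher for 15 and the reference allele for 10, and 13 loci held at least 1. The median size was 0.18, beside 0.15 over all called members. CDKN2B-AS1, the antisense RNA of cell cycle inhibitors, had 6 called members among 9 tested, ADCY5 had 4 of 6 and IGF2BP2, an mRNA binding protein, had 4 of 5. No member passed at KCNJ11, the pore of the ATP-sensitive potassium channel, or at KCNQ1, a voltage-gated potassium channel, where 2 each were tested. The 2 members at TCF7L2, a Wnt pathway factor, and the 18 at UBE2E2, a ubiquitin-conjugating enzyme, had no active allele and were not tested.

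At CDKN2B-AS1 the largest effect was at rs8181050 (chromosome 9, position 22064391), -1.26, -1.23, -1.20, -1.32 and -1.25 in the 5 libraries. Its G allele lay between 1.24 and 1.41 and its A allele between 0.01 and 0.20 (limma adjusted p = 7.76e-09). At THADA (rs13405776, chromosome 2, position 43739121), a locus associated with β cell function, it was 0.90, 0.97, 0.96, 1.13 and 1.03, with an active T allele and an inactive C allele (adjusted p = 1.88e-07). At C2CD4B (rs4775466, chromosome 15, position 62397118), a nuclear C2 domain protein, it was -0.53, -0.58, -0.48, -0.51 and -0.51 (adjusted p = 1.36e-06). In all of these the alleles were apart in every library.

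At IGF2BP2 the largest effect was at rs7630554 (chromosome 3, position 185526062), where the G allele was 1.25-fold higher than the A allele, by 0.33, 0.34, 0.33, 0.32 and 0.32 on the log2 scale. The element was 52.8-fold over plasmid with the A allele, and the levels of the alleles overlapped between libraries. At JAZF1 (rs849133, chromosome 7, position 28192280), a zinc finger cofactor, the effect was -0.27 ± 0.13, and at NKX6-3 (rs6150565, chromosome 8, position 41512581), a homeobox factor, where a deletion lies in the 3′ UTR of ANK1, it was -0.16 ± 0.08 (SD, n = 5 each). At KCNK16 (rs12663159, chromosome 6, position 39282277), a β cell potassium channel, it was 0.18 ± 0.06 (SD, n = 5). Effects of about 0.1 were found at the insulin locus INS-IGF2 (rs115420895, chromosome 11, position 2197121), with 0.10 ± 0.04, and at CDKAL1 (rs4710941, chromosome 6, position 20694228), a tRNA-modifying enzyme, with 0.08 ± 0.06 (SD, n = 5 each). At CDKAL1 the call was lost with the plasmid spread in the error (adjusted p = 0.172) and without any 1 of libraries 2, 3, 4 and 6.

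At loci tied to insulin action and body fat, 12 named loci held 206 members, of which 23 had an active allele and 12 passed (52.2%), beside 41.8% of all SNPs tested, with 6 in each direction and a median size of 0.14. With the plasmid spread in the error, 8 of the 23 passed, beside 31.0% of all SNPs tested. Over members, 12 of 206 were called, beside 623 of 6248 in all. MAP3K1, a kinase of stress signalling, had 6 called members of 9 tested. The largest was at rs832572 (chromosome 5, position 56157201), with 1.01, 0.97, 0.93, 0.94 and 1.09, where both alleles were active and the C allele was 1.98-fold higher (limma adjusted p = 7.16e-08). The levels were 1.42 ± 0.12 for T and 2.40 ± 0.13 for C (SD, n = 5), which did not overlap. At TMEM18, a locus of body mass, rs1320337 (chromosome 2, position 649867) had an effect of 0.29 ± 0.08, and at GRB14, an adaptor of the insulin receptor, rs6713419 (chromosome 2, position 165508300) had 0.21 ± 0.06 (SD, n = 5 each).

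The calls at the other action loci were small in standard culture and were lost with the plasmid spread in the error. At HMGA2, a chromatin architectural protein, rs2947795 (chromosome 12, position 66206798) had an effect of -0.09 ± 0.01 (SD, n = 5) in an element that was 675-fold over plasmid, and its adjusted p went from 0.0209 to 0.382. At PPARG, a nuclear receptor of adipocytes, rs71304101 (chromosome 3, position 12396913) had -0.10 ± 0.09, with an adjusted p of 0.0792 and then 0.125, and the call was also lost without any 1 of libraries 2, 4, 5 and 6. At ADAMTS9-AS2, the antisense RNA of a protease, rs147257399 (chromosome 3, position 64728255) had -0.08 ± 0.06, with 0.0796 and then 0.597. The call was lost without library 2, 5 or 6, and the standard error of its plasmid ratio was 0.11. In DMSO its effect was -0.47 ± 0.04 and in Tg -0.46 ± 0.06 (SD, n = 5 each). The means in DMSO and Tg were -0.07 and -0.10 at rs2947795 and -0.03 and -0.12 at rs71304101. Differences between conditions were not tested. At IRS1, a substrate of the insulin receptor, the single tested member did not pass, and the 2 members at LEP, which encodes leptin, had no active allele.

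The study's text names 21 SNPs, of which 20 are members. Some were picked by the study on these libraries and others from earlier genetic or islet data, and their values are given as a description. Of the 20, 10 passed here, 6 were tested and did not pass, and 4 had no active allele. The study counted SNPs that passed in any of standard culture, DMSO or Tg. For those without a pass here, the limma adjusted p in DMSO was 0.00266 at rs3802177, 0.00926 at rs12189774 and 0.0333 at rs2943656. It was 0.0328 at rs947734, 0.0358 at rs1635852, 0.0422 at rs7903146 and 0.0457 at rs4846567. At rs6937795 it was 0.572, and rs34584161 and rs10507349 were not tested in DMSO. At rs10811660 (chromosome 9, position 22134068) the effect was -0.42, -0.18, -0.19, -0.21 and 0.09, so 1 of 5 libraries had the other sign (limma adjusted p = 0.0550), and the call was lost without any 1 of libraries 2 to 5. At rs10811661 (chromosome 9, position 22134094) it was 0.12, 0.16, 0.04, 0.03 and 0.10 (adjusted p = 0.0443). These SNPs lie 26 bp apart, so their sequences share most bases, and the alternate allele was the lower of the first and the higher of the second.

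In other named SNPs the effects were also small. At rs2879813 (chromosome 8, position 95960947), in an intron of TP53INP1, a p53-induced stress gene, the effect was 0.14 ± 0.03, and at rs10428126 (chromosome 3, position 185520342), in an intron of IGF2BP2, -0.14 ± 0.06 (SD, n = 5 each). At LARP6, an RNA binding protein, rs113350503 (chromosome 15, position 71111437) had 0.12 ± 0.05 in an element that was 20.2-fold over plasmid with the A allele, and rs11630895 (chromosome 15, position 71113738) had -0.07 ± 0.05 (SD, n = 5 each). The latter call was lost with the plasmid spread in the error (adjusted p = 0.164) and without any 1 of libraries 2 to 5. At ARAP1, a GTPase activating protein, rs11603349 (chromosome 11, position 72460694) had 0.09 ± 0.02 (SD, n = 5, adjusted p = 0.0175), and 0.180 with the plasmid spread.

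At rs947735 (chromosome 6, position 137295908) the effect was 0.08 ± 0.04 (SD, n = 5, limma adjusted p = 0.0451), and the call was lost without library 3 or 6, while rs947734 (chromosome 6, position 137295951) had 0.06 ± 0.11 and did not pass. Those tested without passing also include rs3802177 (chromosome 8, position 118185025), in the 3′ UTR of SLC30A8, with -0.06 ± 0.05 and an adjusted p of 0.131, and rs2943656 (chromosome 2, position 227121918), in the locus of IRS1, with 0.07 ± 0.07 and an adjusted p of 0.162. Both passed without library 6. The values were -0.04 ± 0.05 at rs12189774, 0.02 ± 0.06 at rs4846567 and -0.04 ± 0.07 at rs6937795 (SD, n = 5 each). No active allele was found at rs7903146 (chromosome 10, position 114758349), in the locus of TCF7L2, with an effect of 0.05 ± 0.06, at rs1635852, in an intron of JAZF1, with 0.05 ± 0.07, at rs34584161 with -0.06 ± 0.09 or at rs10507349 with 0.03 ± 0.08 (SD, n = 5 each).

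Where an association signal holds several linked SNPs, the directions of its called effects were counted. The lists used here place 1942 members in 206 signals of T2D and related traits, and 87 signals held at least 1 called member. Of these, 51 held 1, 16 held 2 and 20 held 3 or more. Some members entered a signal only through the study's list of SNPs with allelic effects in this assay. These counts are therefore set in part by that choice. The signal of rs1549318 in the locus of LARP6, for example, held 2 members, and both were called. Of the 36 signals with at least 2, 24 held alternate alleles that were higher and lower. Over all called members the directions were near even, with 305 and 318. Unrelated SNPs would then also often differ in direction, and whether 24 departs from this was not tested. At the signal of rs2055942 in the locus of GABRA4, a GABA receptor subunit, 8 of 10 tested members passed. The alternate allele was higher for 7, from 0.07 at rs12649623 to 0.30 at rs13138566, and rs9992220 had -0.10. The last lies 79 bp from rs67592528 and 170 bp from rs17641171, both called with the alternate allele higher, so their sequences overlap. At the signal of rs10461617 at MAP3K1, 3 of the 6 were higher with the alternate allele and 3 with the reference allele. Directions are given as alternate against reference and not relative to disease risk. Among members with a position, 49 called SNPs lay under 200 bp from another member, so that their sequences overlap, and in 8 such pairs both passed. In 54 such pairs 1 SNP passed and the other did not.

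The share that passed was counted on and off the T2D list, and the difference was not tested. Of 323 tested members on the T2D list held here, 153 passed (47.4%), and of 1176 tested members not on it, 470 (40.0%), beside 41.8% of all SNPs tested. These shares are of members with an active allele. Over all members, 153 of 1913 on the list and 470 of 4335 off it were called, a smaller share on the list. The list is held in part, so the second group may contain T2D SNPs. It also contains the SNPs that the study chose within islet open chromatin. Within the T2D list, 18 of 43 tested SNPs in islet open chromatin (ATAC-seq peaks) passed (41.9%) and 135 of 280 outside it (48.2%). Over all members of the list, 18 of 146 in open chromatin and 135 of 1767 outside were called, a larger share in open chromatin. In islet peaks of PDX1, a master regulator of β cell identity, 9 of 16 passed, in those of FOXA2, a pioneer factor, 7 of 15, and in those of NKX6.1, a β cell homeobox factor, 3 of 9.

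The kind of base change was known for 3172 members, of which 705 were tested and 317 passed (45.0%), beside 41.8% of all SNPs tested. Transitions passed in 215 of 487 tested (44.1%) with a median size of 0.16 and transversions in 90 of 195 (46.2%) with 0.15. Insertions and deletions passed in 12 of 23 (52.2%). These shares lie near that of all members with known alleles. Where the alleles differed by A or T against G or C, the G or C allele was the higher in 147 of 257 called members (57.2%) and in 1004 of 1958 members without an active allele (51.3%).

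Short motifs that the SNP creates or removes were counted on both strands in the stretches of 107 members, which the study picked on these libraries, so the counts are descriptions. Of all 107 stretches, 65 were of called members. The dinucleotide CG overlapped the SNP on 1 allele alone in 44 stretches, of which 28 passed, a share near that of all 107. Among these 28, the allele with CG was the higher in 20 and the lower in 8. The alternate allele of rs12201218 forms CG and gave more RNA, and the reference allele of rs4630391, which holds CG, also gave more. At rs12593261 (chromosome 15, position 91520319), chosen after its values were seen, the alternate allele forms CG and the effect was -0.18 ± 0.11 (SD, n = 5). An E-box (CANNTG) was on 1 allele alone in 3 stretches, all called, beside 65 of all 107. The allele that has it was higher in 1 (rs113590475) and lower in 2, rs10226254 among them. TGCTGA, a core of MAF factor sites, was on 1 allele in 4 stretches, of which rs10811660 passed, with the G allele that completes it higher. Of the other words searched, TGACG was on 1 allele alone in 1 stretch, TGANTCA in 2, CCAAT in 2 and CCGGAA in 1. The words GGGCGG and TGTTTA and the words TAATTA and GTTGCC were on 1 allele alone in 0 of the 107.

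The direction was then read in libraries that the effects were not computed from. RNA library 1, of the same plasmid batch, set over the same mean plasmid counts, gave the same sign for 545 of the 623 (87.5%), for 425 of the 465 (91.4%) and for 61.4% of the tested members that did not pass. Set over plasmid library 6 as well, so that neither RNA nor plasmid values are shared, it gave the same sign for 518 of 623 (83.1%). The tested members that did not pass gave 55.1% with plasmid library 6 and those without an active allele 57.1%. By size, 25 of 25 effects of at least 2-fold, 32 of 32 from 0.5 to 1, 146 of 151 from 0.2 to 0.5, 212 of 263 from 0.1 to 0.2 and 103 of 152 under 0.1 had the same sign over plasmid library 6. The median ratio of the value in library 1 over plasmid library 6 to the original effect was 1.00 for effects of at least 2-fold and 0.61 for those under 0.1.

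The plasmid batch of DMSO and Tg was grown from the first library, so the barcodes of a sequence can be the same in both. Their libraries share no column with standard culture. In DMSO and Tg the direction was the same for 547 (87.8%) and 523 (83.9%) of the 623. Among the tested members that did not pass it was the same for 60.4% and 59.1%. The DMSO and Tg values share their plasmid libraries. All 24 of the SNPs with the largest effects had their standard culture sign in all 5 DMSO and all 5 Tg libraries. At rs17748864 DMSO gave 3.37 ± 0.14 and Tg 3.48 ± 0.07 (SD, both n = 5). At rs13130845 the values were 2.39 ± 0.19 and 2.46 ± 0.13. The sizes were not tested between conditions. For effects under 0.1, 112 of 152 kept the sign in DMSO and 103 in Tg, and for those from 0.2 to 0.5, 150 and 144 of 151.

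Some small effects were near 0 or of the other sign in these libraries. At the insulin locus, rs115420895 had 0.10 ± 0.04 in the 5 libraries, but -0.17 in RNA library 1, and means of -0.03 ± 0.11 under DMSO and -0.06 ± 0.20 under Tg. At KCNK16, rs12663159 had 0.18 ± 0.06 and then 0.06, 0.02 ± 0.07 and 0.01 ± 0.15. In RNA library 1 the sign was also the other at rs10428126 (0.04), rs6150565 (0.03) and rs10811661 (-0.02). The DMSO and Tg means of these SNPs kept the standard culture sign.

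At the edge of the member rule, rs918433 was just inside, with 100.0 and 163.4 mean plasmid counts for its alleles, and rs9309245 just outside, with 143.6 and 99.8. Their effects were -0.15, -0.59, 0.34, -0.04 and -0.13 for the first and -0.00409, -0.05, 0.23, 0.99 and 0.31 for the second. Both varied over more than 0.9 between libraries. The members without an active allele that had the largest effects also had few plasmid counts. At rs7944584 the value was 0.64 and at rs9541958 0.61, with 107 to 148 mean plasmid counts per allele.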

How the data were processed

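The authors sequenced barcodes of plasmid and GFP RNA libraries, discarded barcodes of more than 1 sequence and deposited the counts summed over the barcodes of each sequence, before normalization. DESeq2 is named, with no version, in the submitters' processing notes. No barcode counter is given in the sources used here. GEO lists 1 sample per group, so replicates are the table's columns, RNA 2 to 6 and plasmid 1 to 5 as the member rule gives. Per-sample columns not read number 0. Activity used edgeR 4.0.16 (TMM scaling, which balances libraries on typical sequences, at least 10 mean plasmid counts, FDR 1%). Allelic effects used limma 3.58.1 in R 4.3.3, two-sided, pseudocount 1, within libraries, so that the alleles are paired by library, with Benjamini-Hochberg adjustment over all 1514 SNPs tested. Every adjusted p is from limma. Printed levels are TMM-scaled. DESeq2 1.42.0 and further fits served as alternatives, and the tests were tested on simulated data. Sums were made with Python 3.11.15. DMSO and Tg counts of both sequencing runs were summed. Barcode reads carry no molecular identifiers, so the spread between libraries, not the counts, was taken as the error.

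Named SNPs are those of the study's text, the 12 largest effects each way with 1 sign in all libraries, the largest called effect at each of 40 loci, and the edge of the rule. The members and lists were chosen with earlier results of these data known. Positions, loci, peaks and sequences are from the study's lists, in part shortened, so they were counted without tests. The genome at hand is mouse and was not used. Some SNPs and loci that these rules name are not reported here.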

Additional observations from a re-analysis of the deposited data

Results flagged for a closer look

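Among 58 named members, the 5 library values of the allelic effect were examined for 1 library far from the others, which chance alone gives for about 1 in 20. It was met by 1, rs2947795 at HMGA2. Its effect was -0.08 in library 5 (-0.0771) and between -0.0903 and -0.0867 in the other 4. The mean plasmid counts of its alleles were 328.8 and 507.0.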

How the results depend on the processing

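The pseudocount (0.5 or 10), DESeq2 for activity, limma with a trend, the paired test of each SNP alone, edgeR's interaction, the plasmid library of the same number, the plasmid count limits (300 or 10) and all 6 library numbers (second columns added in) kept each count of members within 1.5 times, with 441 to 765 called. With libraries scaled by total counts for the activity test, 119 members were tested and 106 passed, 54 with the alternate and 52 with the reference allele higher, fewer because fewer were tested. Testing every SNP raised the number tested to 6248, with 570 called, of which 369 are among the 623, so that 254 calls were lost and 201 came from members without an active allele. With no replicate block, so that alleles are not paired by library, 467 passed, 465 of them among the 623. Without 1 replicate in turn, 1389 to 1487 were tested and 518 to 577 passed, 249 to 284 with the alternate and 265 to 293 with the reference allele higher, and 23 to 26 with at least 2-fold. The same direction held in DMSO for 92.5% and in Tg for 89.0% of the effects called with the plasmid spread in the error, in Tg for 81.5% with the first sequencing run alone, and in the RNA library not used for 83.1% over plasmid library 6; the cause was not tested. Of the 48 named SNPs that passed, 36 passed under every alternative in which they were tested, and none of the 885 values of named SNPs reversed a call. The 12 others were rs10811660, rs10811661, rs113350503, rs115420895, rs11603349, rs11630895, rs147257399, rs2879813, rs2947795, rs4710941, rs71304101 and rs947735. Depth limits members near 100 plasmid counts most.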
